A study of Mus musculus with 6 samples.

Results

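The genes described here encode the enzymes that write, copy and remove DNA methylation, with the cofactors and 1 regulator that act with them. They were chosen by symbol as Dnmt1, Uhrf1, Dnmt3a, Dnmt3b, Dnmt3l, Tet1, Tet2, Tet3, Tdg and Prdm14, which are 10 of the 39017 genes in the count tables, and all 10 were found. PolyA RNA-Seq of mouse embryonic stem cells (mESCs) was available for 3 groups of 2 libraries. The study asked what RNA polymerases contribute to the folding of chromatin, and these libraries measured mRNA around the rapid loss of RNA polymerase II (Pol II).

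The untreated and the auxin-treated groups were V6.5 mESCs with a mAID-GFP tag on the endogenous RPB1 protein, the main catalytic subunit of Pol II. Both groups received doxycycline at 1 μg/ml for 12 h, which induces the plant ubiquitin ligase component OsTIR1 placed at Rosa26, so the controls carry the tag and the inducer too. The auxin group then received 500 μM indole-3-acetic acid, which brings the tagged protein to OsTIR1 for degradation, for 6 h. The third group was wild-type V6.5 mESCs without the tag, for which the labels state neither doxycycline nor auxin. All lines were grown on irradiated mouse embryonic fibroblast feeders with serum and leukaemia inhibiting factor. By the study's methods, cells were harvested after 2 passages of the feeders. The study's methods call the replicates of its sequencing experiments biological, and the labels do not say how the 2 libraries of a group were separated, so p-values measure the spread between these libraries.

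In mammals, methyl groups sit mostly on the cytosine of CpG dinucleotides. UHRF1 recognizes hemimethylated DNA behind the replication fork and brings in DNMT1, which copies the mark, whereas DNMT3A and DNMT3B place it at unmethylated sites, helped in early embryonic and germ cells by the catalytically inactive DNMT3L. The TET enzymes oxidize methylcytosine stepwise, TDG excises the most oxidized forms for base excision repair, and PRDM14 is a sequence-specific repressor that holds down the de novo enzymes in naive mESCs.

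Of these genes, Tet1 spanned the widest range over the 3 groups. Relative to the bulk of mRNAs it fell after auxin, the single member of the set to be called. It was 3.52-fold higher in wild-type mESCs than in the untreated degron line, and in that comparison 7 of the 10 genes were called higher. Of all tested genes, 4.20% were called after auxin and 60.6% in the wild-type comparison, where 29.9% of all tested genes were higher. The count of 1 after auxin depended on single libraries, although Tet1's log2 fold change ran only from -0.40 to -0.35 with each left out in turn. The direction in wild-type cells is relative to the bulk of nuclear-encoded mRNAs and turned when libraries were scaled to mitochondrial mRNAs, with values given below beside each comparison.

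The TET genes differed most within their family, and the letters just upstream of their RefSeq starts are shown for that reason. Each run gives the 250 bases before the start, 5′ to 3′ on the gene's strand in RefSeq's GRCm38.p6, with CpG dinucleotides, the substrate of these enzymes, in capitals. The windows lie at chr10:62887325-62887574 for Tet1, at chr3:133544391-133544640 for Tet2 and at chr6:83441679-83441928 for Tet3, all on the minus strand. Each window lies inside the gene's span in the GENCODE annotation given below, which also holds starts further upstream that are not shown.
Tet1: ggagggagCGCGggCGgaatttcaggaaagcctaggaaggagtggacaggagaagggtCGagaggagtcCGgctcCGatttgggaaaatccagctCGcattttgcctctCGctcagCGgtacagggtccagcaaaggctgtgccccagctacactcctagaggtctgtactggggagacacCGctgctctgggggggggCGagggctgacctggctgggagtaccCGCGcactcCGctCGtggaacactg
Tet2: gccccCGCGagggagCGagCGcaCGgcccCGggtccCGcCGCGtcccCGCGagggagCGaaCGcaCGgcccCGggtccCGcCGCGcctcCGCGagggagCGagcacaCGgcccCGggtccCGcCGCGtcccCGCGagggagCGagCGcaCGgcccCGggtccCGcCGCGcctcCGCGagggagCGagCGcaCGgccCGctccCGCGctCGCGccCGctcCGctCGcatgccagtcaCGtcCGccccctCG
Tet3: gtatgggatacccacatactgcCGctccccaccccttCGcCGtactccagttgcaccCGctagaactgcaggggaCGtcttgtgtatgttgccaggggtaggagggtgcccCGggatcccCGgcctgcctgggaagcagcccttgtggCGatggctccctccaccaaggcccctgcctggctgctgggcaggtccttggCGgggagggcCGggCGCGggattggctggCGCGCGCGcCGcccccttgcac
The Tet1 window held 15 CpGs and the Tet3 window 17, against 51 in the Tet2 window and a median of 6 over the 32851 promoter windows of the table. Only 0.0487% of all windows held more CpGs than that of Tet2, whereas 25.4% held more than that of Tet1. A GC box (GGGCGG, either strand) occurred once in each of the 3 windows and in 32.7% of all windows. A CCAAT box (CCAAT, either strand) occurred once in the Tet3 window, in neither of the other TET windows and in 33.8% of all windows. Neither the E-box CACGTG nor the octamer ATTTGCAT, searched on both strands, occurred in the 3 windows, and they occurred in 6.02% and 1.60% of all windows. In all, 9 of the 10 genes had 16 windows in the table, whose CpG counts ran from 2 upstream of 1 Dnmt1 start to the 51 of Tet2. These matches describe letters in a window and no binding was measured here.

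The mm10 positions below come from GENCODE vM21, matched by gene ID. On chromosome 9, Dnmt1 (ENSMUSG00000004099) spans chr9:20907209-20959888, minus strand. Uhrf1 (ENSMUSG00000001228) lies at chr17:56303321-56323486, plus strand. The de novo enzymes are Dnmt3a (ENSMUSG00000020661) at chr12:3806007-3914443 and Dnmt3b (ENSMUSG00000027478) at chr2:153649450-153687730, both on the plus strand. Their cofactor Dnmt3l (ENSMUSG00000000730) spans chr10:78041947-78063622, plus strand. The oxidases are on the minus strand, Tet1 (ENSMUSG00000047146) at chr10:62804570-62908996, Tet2 (ENSMUSG00000040943) at chr3:133463679-133545139 and Tet3 (ENSMUSG00000034832) at chr6:83362373-83459084. The glycosylase gene Tdg (ENSMUSG00000034674) lies at chr10:82629828-82650799, plus strand, and Prdm14 (ENSMUSG00000042414) at chr1:13113457-13127163, minus strand. The values are counts over exons of the whole gene.

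Some of these counts could hold reads of other genes. Dnmt3a, Dnmt3b, Dnmt3l, Tet2, Tet3 and Tdg overlap a gene on the other strand, among them Aire for Dnmt3l and Glt8d2 for Tdg. Whether reads were counted by strand is not given in the sources used here, so reads of such pairs may not have been told apart. On the same strand, Tet1 overlaps Gm48353 and Gm26479, Tet3 overlaps Mir6374 and 5430434F05Rik, and Dnmt1 overlaps Mir7081. All these overlaps are of gene spans, and whether exons overlap was not examined. Of all 100-base stretches of the Tdg transcripts, 27.3% also occur in transcripts of other genes, mainly the pseudogenes Tdg-ps, Gm9855 and Gm5597, and Tdg counts are uncertain to that extent. The share was 5.53% for Uhrf1 (Gm5648), 4.47% for Dnmt3b (its paralog Dnmt3c), 0.102% for Tet1 and 0% for the other 6 genes.

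Library totals ran from 14094022 to 15358714 counts. The 10 genes held between 212 and 16429 counts in each library, so none was near the floor of 3 counts. Pou5f1, Nanog and Sox2, which mark pluripotent cells, had at least 3603 counts in every library, including the wild-type ones. The labels of the wild-type libraries mention retinas in the RNA extraction, but 14 retina markers summed to 4.08 and 3.09 CPM (counts per 1000000 counts of the library) there. They summed to 4.96 and 6.99 in the untreated degron libraries on the same scale. Markers of feeder fibroblasts were present in all groups and are given beside each comparison.

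Levels of different genes were compared as CPM, TMM-scaled over the 6 libraries, per kilobase of exon. In untreated degron cells, Dnmt3l stood highest at 84.6 ± 5.43 CPM per kilobase (SD, n = 2), followed by Uhrf1 at 70.3 ± 5.35 and Dnmt1 at 40.0 ± 1.83. Tet1 followed at 20.3 ± 0.443 and Dnmt3b at 17.4 ± 0.973. Dnmt3a at 10.2 ± 0.736 and Tdg at 9.79 ± 0.712 overlapped between libraries and could not be ordered. Prdm14 at 7.72 ± 0.747, Tet2 at 5.75 ± 0.476 and Tet3 at 2.34 ± 0.194 stood lowest. With the longest transcript as the length, Tet2 and Prdm14 changed places here and after auxin, where Tet1 also came under Dnmt3a. The maintenance pair and the inactive cofactor were thus the most abundant of the transcripts per length, and Tet3 was the least abundant in every group.

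The order of the upper genes differed in the other groups. After auxin, Dnmt3l at 87.3 ± 1.26 CPM per kilobase, Uhrf1 at 61.4 ± 2.09 and Dnmt1 at 33.8 ± 0.751 kept the first places, and Dnmt3b at 17.7 ± 0.791 stood above Tet1 at 15.5 ± 0.195. In wild-type cells Uhrf1 led at 128 ± 0.559, then Dnmt3l at 79.4 ± 4.09, Tet1 at 72.0 ± 3.19 and Dnmt1 at 56.2 ± 0.451. The per-library values of each neighbouring pair named here did not overlap.

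**Figure D1:**
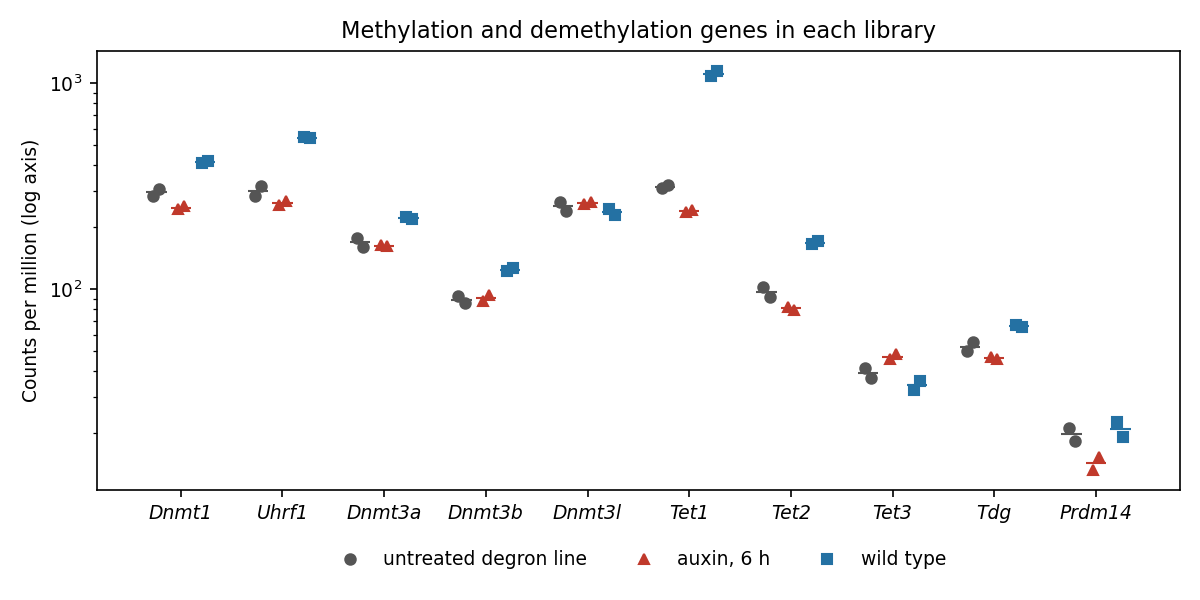
CPM of the 10 genes in each library, TMM-scaled over the 6 libraries, on a log axis. Circles are untreated degron cells, triangles the same line after 6 h of auxin, squares wild-type cells, and short lines the mean of 2 libraries. Tet1 in the wild-type libraries, at 1080 and 1150 CPM, stands above every other value.

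The first comparison asked which of these mRNAs differed after 6 h of auxin. Tet1 fell by 0.37 on the log2 scale and no other of the 10 genes was called. Falls and rises after auxin, here and below, are relative to the bulk of mRNAs, since TMM scaling takes out a shift common to most genes. Scaled to mitochondrial mRNAs, Tet1 was at -0.54 and not called (adjusted p = 0.108, edgeR). These mRNAs summed to 3400 and 4080 CPM in untreated and to 3960 and 4410 CPM in auxin-treated libraries. Of 12 tested, 3 were called higher and 0 lower. This reference thus also differed between replicates. By the quasi-likelihood test of edgeR, with p adjusted by Benjamini-Hochberg over 16128 tested genes, 0 of the 10 were called higher and 1 lower, against 1 higher and 5 lower at an unadjusted p under 0.05. Of all tested genes, 4.20% were called, 2.56% higher and 1.64% lower, and 1.53% were called with an absolute log2 fold change over 1, which none of the 10 reached. The 2 groups did not overlap for 7 of the 10 genes, 6 of them lower and Tet3 higher after auxin, against 49.9% of all tested genes. The median log2 fold change of the 10 genes was -0.17, beside 0.00 over all tested genes and -0.02 over the 9356 with a mean of at least 200 counts. Of those 9356, which are closer in count to the 10, 130 were called higher and 247 lower. The groups did not overlap for 1817 of them on the higher and 2910 on the lower side. DESeq2 called 0 of the 10 higher and 1 lower.

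The values after auxin ran with changes in other gene groups. Feeder fibroblast markers summed to 346 and 327 CPM in untreated and to 395 and 442 CPM in auxin-treated libraries, with 2 of 15 tested markers higher and none lower. In bulk RNA, fewer cells of a type and less RNA per cell cannot be told apart, and the part of the feeders in the values of the 10 genes was not tested. Pluripotency markers were called lower for 5 of 12 and higher for 0 (median log2 fold change -0.25). Polr2a, the gene of the tagged subunit, had 6623 and 6568 counts without and 10396 and 10663 with auxin, a log2 difference of 0.57 (SE 0.07, adjusted p = 0.00117, edgeR). Since degradation is of the protein, the level of this mRNA is no check on the labels.

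The second comparison set wild-type cells against the untreated degron line, which the study uses as its control. The study bases that use on a high correlation between wild-type and tagged cells, their mRNA included. Such a correlation is another measure than a count of called genes. Here 7 of the 10 genes were higher, 0 were lower and Dnmt3l, Tet3 and Prdm14 were not called. Tet1 alone passed an absolute log2 fold change of 1. Of the 15778 genes tested, 60.6% were called, 29.9% higher and 30.7% lower, and 18.1% were called with an absolute log2 fold change over 1. The groups did not overlap for 8 of the 10, 7 of them higher, against 81.0% of all tested genes. The median log2 fold change of the 10 was 0.43, beside -0.01 over all tested genes and 0.05 over the 9255 with a mean of at least 200 counts. Of those 9255, which are closer in count to the 10, 3488 were called higher and 2839 lower. The groups did not overlap for 4307 of them on the higher and 3593 on the lower side. The line, its separate table and any separate preparation cannot be told apart in this comparison. It shares the untreated libraries with the first, so the values of both are given side by side below with no measure of likeness.

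Mitochondrial mRNAs stood apart between these lines. All 13 were higher in wild-type cells, with a median log2 fold change of 2.24, and they summed to 3310 and 3980 CPM in the untreated degron libraries and to 15600 and 15300 CPM in the wild-type ones. With libraries scaled to these mRNAs, the median of all tested genes moved to -2.10, 73 genes were called higher and 15235 lower in place of 4713 and 4842, and all 10 genes were called lower. Relative to that median, Tet1 stood 1.82 higher on the log2 scale, Uhrf1 0.87, Tet2 0.79 and Dnmt1 0.49. A change of scaling moves all genes by nearly the same amount, so these values repeat the TMM ones and are no separate support. Each direction given for wild-type cells below is relative to the bulk of nuclear-encoded mRNAs. After auxin, the same scaling moved the median of all tested genes to -0.17, with 167 genes called higher and 52 lower in place of 413 and 264. Feeder fibroblast markers summed to 222 and 226 CPM in wild-type and to 338 and 319 CPM in untreated degron libraries, with 3 of 15 called higher and 7 lower. Pluripotency markers were higher for 9 of 12 and lower for 1, with a median log2 fold change of 0.82 beside the 0.43 of the 10 genes, and they summed to 4520 and 5160 CPM in untreated degron and 7880 and 7780 CPM in wild-type libraries. The part of either marker group in the difference was not tested.

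**Figure D2:**
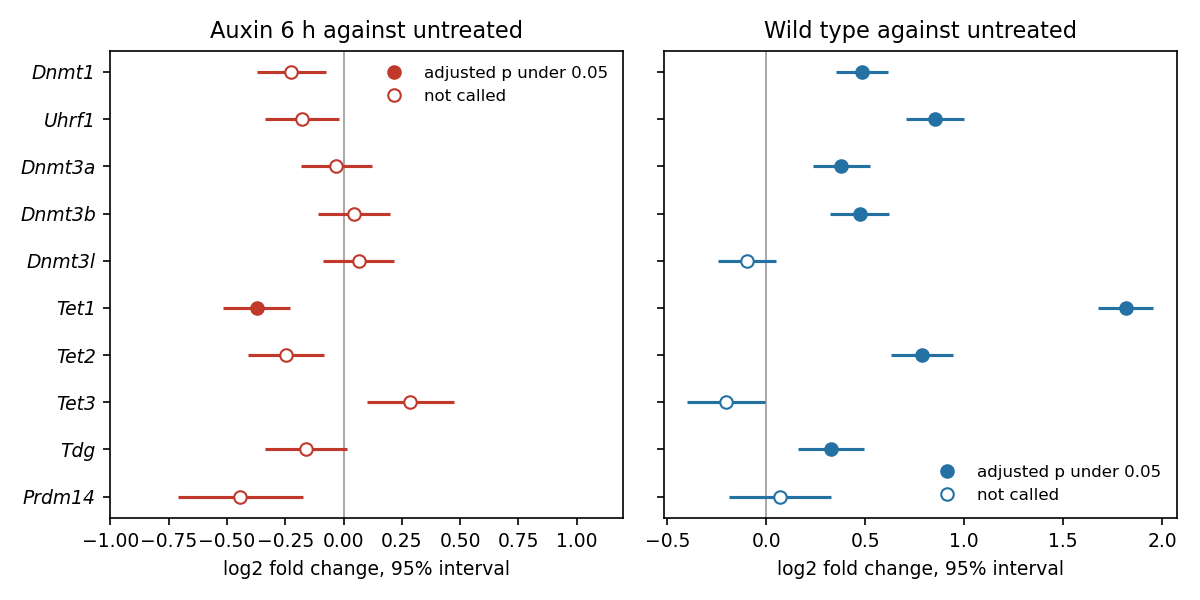
Log2 fold changes of the 10 genes after auxin (left) and in wild-type cells (right), each against the untreated degron line, with 95% intervals from edgeR on 4 libraries. Filled points passed an adjusted p of 0.05: Tet1 at -0.37 on the left, and 7 genes on the right, led by Tet1 at 1.81. Scaling to mitochondrial mRNAs turned these 7 to lower.

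Among the maintenance genes, Dnmt1, the methyltransferase that copies the mark after replication, had 285 and 305 CPM in untreated cells, 245 and 253 after auxin and 412 and 417 in the wild type (CPM over 6 libraries here and below). Both auxin libraries lay under, and both wild-type libraries over, the untreated ones. The log2 difference after auxin was -0.22 (SE 0.07) and was not called (adjusted p = 0.0859, edgeR). In wild-type cells it was 0.48 (SE 0.06, adjusted p = 3.38e-05, edgeR), a 1.40-fold higher level.

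Uhrf1, whose protein recruits DNMT1 to newly replicated DNA, had 284 and 316 CPM in untreated cells, 255 and 268 after auxin and 546 and 542 in the wild type. The groups did not overlap in either comparison. The difference after auxin, -0.18 on the log2 scale (SE 0.07, adjusted p = 0.197, edgeR), was close to the 0.16 by which the untreated libraries themselves differed. The wild-type level was 1.81-fold higher, a log2 fold change of 0.85 (SE 0.07, adjusted p = 8.32e-07, edgeR), so the writer and its recruiter were both higher in that comparison.

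For the de novo enzymes, Dnmt3a had 178 and 161 CPM in untreated cells, 164 and 163 after auxin and 223 and 220 in the wild type. The auxin libraries lay between the untreated ones. The log2 difference after auxin was -0.03 (SE 0.07, adjusted p = 0.86, edgeR), with a 95% interval from -0.18 to 0.12. Dnmt3a was 1.30-fold higher in wild-type cells (log2 fold change 0.38, SE 0.07, adjusted p = 0.000403, edgeR).

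Dnmt3b, its paralog, had 92.4 and 85.4 CPM in untreated cells, 87.7 and 93.5 after auxin and 122 and 127 in the wild type. Untreated and auxin-treated libraries overlapped, with a log2 difference of 0.05 (95% interval -0.11 to 0.20, adjusted p = 0.787, edgeR). The wild-type level was 1.39-fold higher (log2 fold change 0.47, SE 0.07, adjusted p = 0.000105, edgeR). Per kilobase, Dnmt3b made up 62.9% and 63.4% of the sum of both de novo enzymes in untreated cells, 63.6% and 65.1% after auxin and 64.0% and 65.2% in the wild type. The shares of untreated and other libraries differed by little, and this was not tested.

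Dnmt3l, the inactive cofactor, had 264 and 241 CPM in untreated cells, 258 and 264 after auxin and 246 and 229 in the wild type. The groups overlapped in both comparisons. Neither the log2 difference after auxin, 0.06 (95% interval -0.09 to 0.22, adjusted p = 0.67, edgeR), nor that in wild-type cells, -0.10 (95% interval -0.24 to 0.05, adjusted p = 0.22, edgeR), was called.

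Of the oxidases, Tet1 is well known from mESCs. Its counts were 4439 and 4644 in untreated cells, 3788 and 3747 after auxin and 15289 and 16429 in the wild type. In CPM these were 310 and 319, 238 and 242, and 1080 and 1150. The replicates of each group lay close together, with log2 differences of 0.05, 0.02 and 0.09 within the groups. After auxin the level was 0.772 of that in untreated cells (log2 fold change -0.37, SE 0.07, 95% interval -0.52 to -0.23, adjusted p = 0.00888, edgeR), and 5.21% of tested genes had a lower log2 fold change. The call was lost without auxin replicate 1 (log2 fold change -0.37, adjusted p = 0.179) and without auxin replicate 2 (-0.38, adjusted p = 0.152), each from edgeR on the other 3 libraries. It was called in 9 of 13 alternative settings, over which the log2 fold change ran from -0.54 to -0.35 and edgeR's or DESeq2's adjusted p from 1.01e-08 to 0.179.

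In wild-type cells Tet1 was 3.52-fold higher than in the untreated degron line (log2 fold change 1.81, SE 0.06, 95% interval 1.67 to 1.95, adjusted p = 2.18e-09, edgeR). Only 1.80% of the tested genes had a higher log2 fold change. Scaled to mitochondrial mRNAs it was -0.28, the least lowered of the 10.

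Tet2, the second oxidase, had 103 and 91.3 CPM in untreated cells, 81.7 and 79.6 after auxin and 165 and 172 in the wild type. The groups did not overlap. The log2 difference after auxin was -0.25 (SE 0.07) and was not called (adjusted p = 0.0845, edgeR). The wild-type level was 1.73-fold higher (log2 fold change 0.79, SE 0.07, adjusted p = 2.8e-06, edgeR).

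Tet3, the oxidase known from the oocyte and zygote, had values on the other side of 0 in both comparisons and was not called. It had 41.4 and 36.9 CPM in untreated cells, 45.8 and 48.3 after auxin and 32.4 and 35.9 in the wild type. Its log2 difference after auxin was 0.29 (95% interval 0.10 to 0.47, adjusted p = 0.083, edgeR), an interval apart from that of Tet1, although the difference between the genes was not tested. In wild-type cells it was -0.20 (95% interval -0.40 to -0.01, adjusted p = 0.0679, edgeR).

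The TET genes were also compared as shares of their sum, as a description with no test. Per kilobase of exon, Tet1 made up 70.0% and 73.1% of the TET sum in untreated cells, 66.9% and 67.3% after auxin and 85.6% and 85.7% in the wild type. Tet3 made up 8.68% and 7.81%, 12.0% and 12.4%, and 2.39% and 2.48% in the same order. The shares of Tet1 and Tet3 did not overlap between the groups of 2 libraries. Those of Tet2 overlapped between untreated (21.3% and 19.1%) and auxin-treated cells (21.1% and 20.3%) and were 12.0% and 11.8% in the wild type. The Tet1 shares were lower with the longest transcript as the length, at 59.0% and 62.5% in untreated, 55.8% and 56.2% in auxin-treated and 78.2% and 78.4% in wild-type cells, in the same order of groups.

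**Figure D3:**
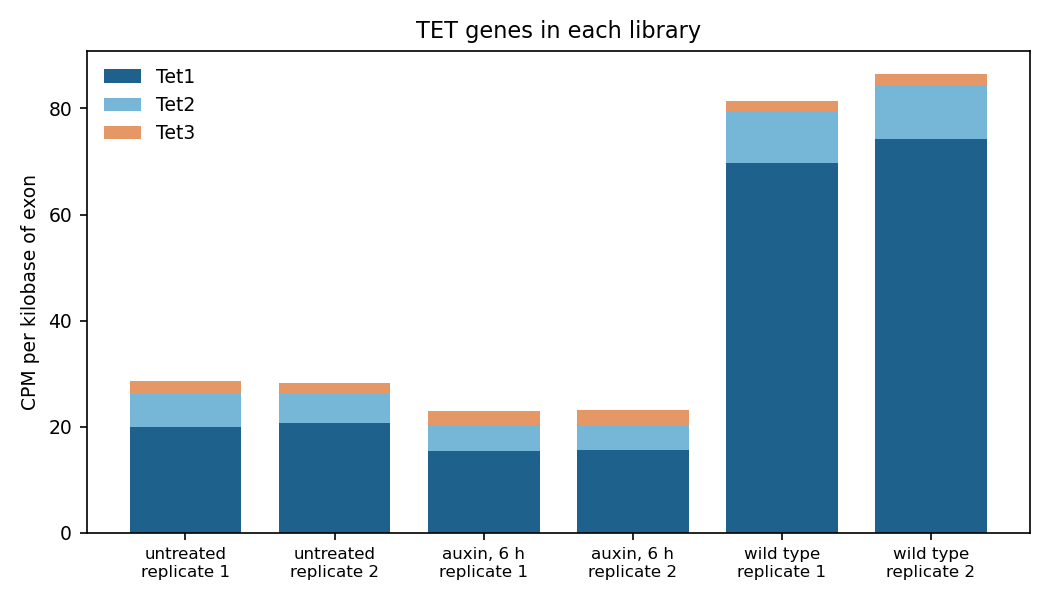
CPM per kilobase of exon of Tet1, Tet2 and Tet3, stacked for each of the 6 libraries. The sums were 28.6 and 28.3 in untreated cells, 23.0 and 23.3 after auxin and 81.4 and 86.6 in wild-type cells, and most of the difference between the lines is Tet1 on this TMM scale, which scaling to mitochondrial mRNAs turns.

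Tdg, the glycosylase that removes oxidized cytosine, had 49.9 and 55.3 CPM in untreated cells, 47.0 and 45.7 after auxin and 67.4 and 65.2 in the wild type. The groups did not overlap in either comparison. The log2 difference after auxin, -0.16 (SE 0.08, adjusted p = 0.291, edgeR), was not called. In wild-type cells Tdg was 1.25-fold higher (log2 fold change 0.33, SE 0.07, adjusted p = 0.00277, edgeR), the smallest of the 7 called differences, in a gene whose counts may hold pseudogene reads.

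Prdm14, the regulator of the set, had the lowest counts, 303 and 268 in untreated cells, 212 and 239 after auxin and 320 and 275 in the wild type. Both auxin libraries lay under the untreated ones, and the wild-type and untreated libraries overlapped. Its log2 difference after auxin, -0.44 (SE 0.12, 95% interval -0.71 to -0.18), had the largest size among the 10 but also the largest error, and it was not called (adjusted p = 0.064, edgeR). In wild-type cells the difference was 0.07 (95% interval -0.19 to 0.33, adjusted p = 0.626, edgeR).

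**Figure D4:**
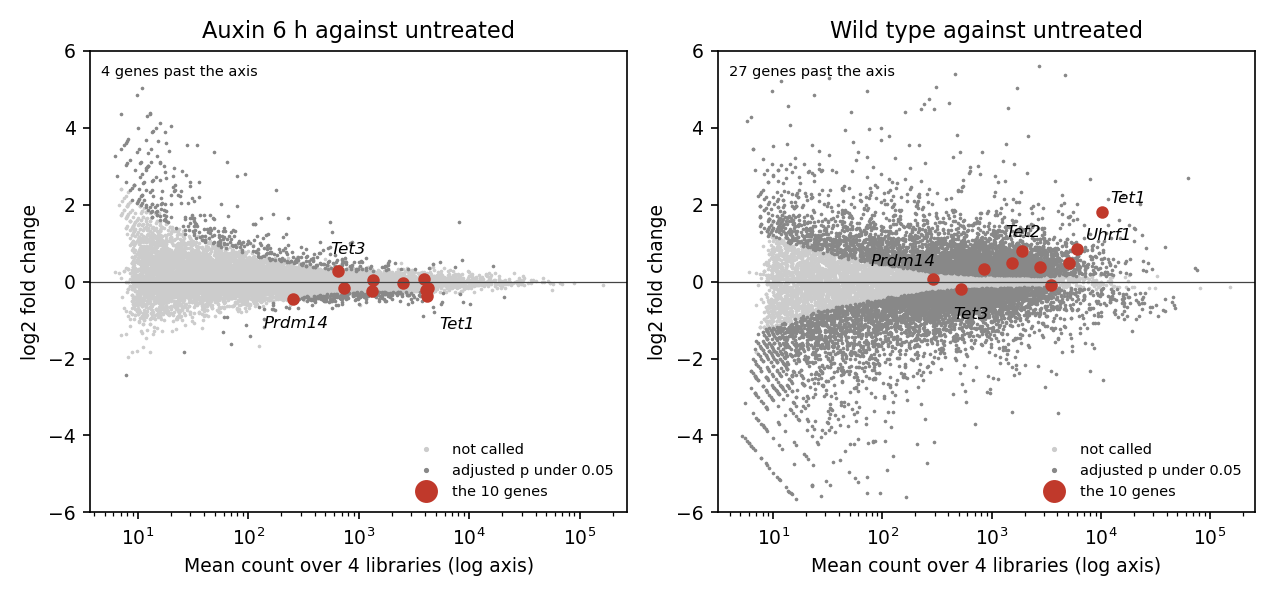
Log2 fold change against the mean count over 4 libraries (log axis) for every tested gene after auxin (left) and in wild-type cells (right). Dark grey points passed an adjusted p of 0.05 and red points are the 10 genes, which lie between -0.44 and 0.29 on the left, while Tet1 on the right stands at 1.81 (-0.28 when scaled to mitochondrial mRNAs).

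The partners of these genes were followed in 9 lists chosen by function, with earlier results of these data known. After auxin, called genes were few in most of them, as among all tested genes (2.56% higher and 1.64% lower). In the list of maintenance partners, 0 of 15 rose and 1 fell (median log2 fold change -0.09). It was Cdca7, a factor of the HELLS remodeling complex, at 1620 and 1841 counts without and 1243 and 1358 with auxin (log2 fold change -0.51). Among 11 genes of methylation protection and imprint control, 0 rose and 1 fell (median -0.03), which was Dppa3, whose protein shields the maternal genome from demethylation (308 and 327 against 271 and 226 counts, log2 fold change -0.46). DESeq2 did not call Dppa3 (adjusted p = 0.287).

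In base excision repair, 1 of 17 tested genes rose and 0 fell (median -0.02). That gene, Gadd45b, is a stress-induced gene that has also been linked to active demethylation, and it had 728 and 690 counts without and 1200 and 987 with auxin (log2 fold change 0.52). Among TET partners and cofactor supply, 0 of 12 rose and 2 fell (median -0.03). Of these, Sall4, a pluripotency zinc finger protein, stood at a log2 fold change of -0.50 and Wdr76 at -0.38, and DESeq2 did not call Wdr76 (adjusted p = 0.153). In the methyl donor cycle, which supplies S-adenosylmethionine, 0 of 16 rose and 1 fell (median -0.08), namely Mtrr, the reductase that reactivates methionine synthase (log2 fold change -0.34, DESeq2 adjusted p = 0.0934).

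The list of PRDM14 partners and co-regulators had the most calls after auxin, with 5 of 13 lower and 0 higher (median log2 fold change -0.26), where 1.64% of all tested genes were lower. DESeq2 called 3 of the 13 lower. Nanog, a core pluripotency factor, fell from 6332 and 6531 to 4760 and 4500 counts (log2 fold change -0.58), and Tfap2c, an AP-2 factor of naive and germ cells, from 694 and 845 to 547 and 537 (-0.61). The list shares genes such as Nanog with the pluripotency markers, so the counts of both are not independent. By edgeR's adjusted p, 0 genes were called among 10 methyl-CpG readers (median -0.09) and 12 tested PRDM family genes (-0.02). The same held for 16 germline genes listed as silenced by methylation (0.10). At an unadjusted p under 0.05, edgeR gave 0 of the readers, 1 PRDM gene higher and 2 lower, and 1 germline gene higher, and DESeq2 called 0 genes in all 3 lists.

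Between wild-type and untreated degron cells, the counts of each list stand against 29.9% of all tested genes higher and 30.7% lower, again relative to the bulk of nuclear mRNAs, and whether a list differs from that background was not tested. Among maintenance partners, 12 of 15 were higher and 1 lower (median log2 fold change 0.48). The PCNA-associated factor Pclaf, listed as 2810417H13Rik, stood at 379 and 430 counts in the degron line and at 1385 and 1399 in the wild type (1.79), and Pcna, the replication clamp, at 0.70. Uhrf2, the paralog of Uhrf1, went the other way, from 2119 and 2075 to 1185 and 1209 counts (log2 fold change -0.80). Uhrf1 and its paralog thus differed in opposite directions between the lines.

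In methylation protection and imprint control, 8 of 11 were higher and 0 lower (median 0.35), or 5 higher by DESeq2, with the imprint guardian Zfp57 at a log2 fold change of 0.93 and the histone demethylase Kdm1a at 0.47. Among methyl-CpG readers, 1 of 10 was higher and 2 lower (median -0.08), a smaller share than the 60.6% called over all tested genes. These were Zbtb38 at 0.48, Mbd6 at -0.63 and Mbd5 at -0.97. Base excision repair had 7 of 17 higher and 5 lower (median 0.14), or 4 and 4 by DESeq2, with the ligase Lig3 at 0.87 and the sensor Parp1 at 0.61 against Gadd45g at -1.07 and the oxoguanine glycosylase Ogg1 at -0.80. Among Lig3 transcripts, 22.6% of 100-base stretches also occur in another gene, Rffl. Of the other genes named from the lists, Pcna shared 10.1% with a pseudogene, Hormad1 9.36%, Mat2a 8.31%, Sall4 5.77% and Wdr76 5.25%, each with other transcripts, and counts of these genes are uncertain to that extent.

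The cofactor side was mixed. Of 12 TET partners and suppliers, 6 were higher and 3 lower (median 0.37). Wdr76 was higher at a log2 fold change of 1.35, and Idh1, the cytosolic isocitrate dehydrogenase that makes the α-ketoglutarate TET enzymes need, had 706 and 782 counts in the degron line and 1727 and 1702 in the wild type (1.22). The mitochondrial Idh2 was lower (-0.40), as was Ogt, the O-GlcNAc transferase that binds TET proteins (-0.58). In the methyl donor cycle, 9 of 16 were higher and 4 lower (median 0.26), with Mthfd1 at 0.97 and the S-adenosylmethionine synthetase Mat2a at 0.93 against Shmt2 at -0.67.

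Among PRDM14 partners, 8 of 13 were higher and 3 lower (median 0.48). Prdm1, a transcriptional repressor required for germ cell specification, had 50 and 63 counts in the degron line and 285 and 312 in the wild type (log2 fold change 2.41), and Klf4 stood at 0.89. Klf2 stood at -1.16, and Cbfa2t3 had 89 and 58 counts in the degron line and 14 and 14 in the wild type (-2.37). In the PRDM family, 7 of 11 were higher, with Prdm1 and Prdm2 (0.43) named by the rule, and 1 lower (median 0.33), which was Mecom at 34 and 25 against 4 and 2 counts. DESeq2 called 4 of the family higher and 1 lower. Of the germline genes listed as silenced by methylation, 4 of 15 were higher and 8 lower (median -0.38), or 1 and 6 by DESeq2. The 16 listed genes summed to 331 and 272 CPM in untreated degron and to 237 and 233 CPM in wild-type libraries. The name of this list thus does not mean that its genes were silent in these cells. Taf7l, a germ cell TAF, had 406 and 292 counts in the degron line and 65 and 69 in the wild type (log2 fold change -2.37), and Rpl10l, a testis ribosomal protein, stood at -0.80, whereas the RNA helicase Ddx4 at 0.63 and the meiotic Hormad1 at 0.40 were higher. DESeq2 did not call Hormad1 (adjusted p = 0.0839).

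**Figure D5:**
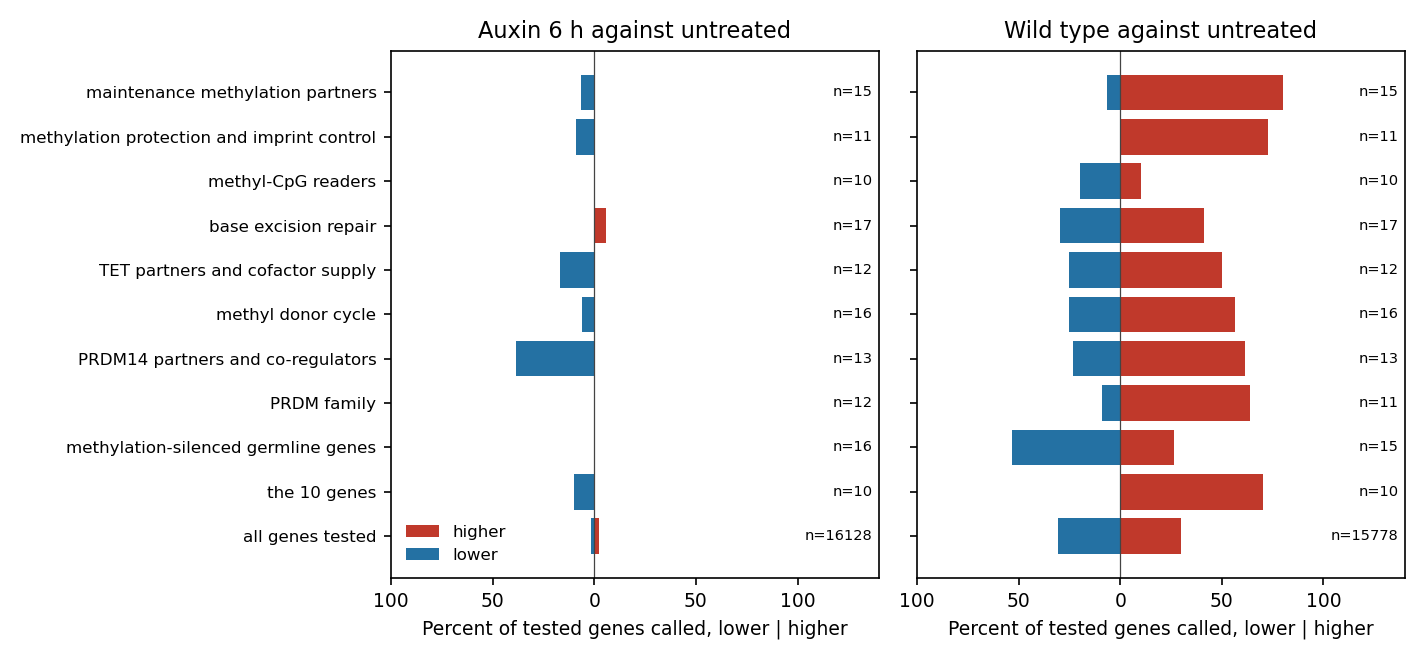
Percent of tested genes called higher (right of 0) or lower (left of 0) in each list, for the 10 genes and for all tested genes, after auxin and in wild-type cells, each against the untreated degron line. After auxin the longest bar is that of PRDM14 partners, 5 of 13 lower. In wild-type cells maintenance partners have 12 of 15 higher, and the list of methylation-silenced germline genes has 8 of 15 lower. Directions are relative to the bulk of nuclear mRNAs.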

How the data were processed

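The data are PolyA RNA-Seq of 3 groups with 2 libraries each. The authors aligned 150-base paired reads to mm10 with hisat2 2.1.0 and, with salmon and htseq-count, deposited raw counts per GENCODE gene. The release and strand setting are not given in the sources used here. Degron and wild-type libraries are in separate tables, joined here by gene ID because 27 symbols had turned into dates. 2 knockout columns matched no sample and were not used, nor were the authors' own DESeq2 columns (log2 fold change, fold and p-value).

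Each comparison was fitted on its own 4 libraries with edgeR 4.0.16 in R 4.3.3 (glmQLFit and glmQLFTest, TMM, filterByExpr with a minimum count of 10, Benjamini-Hochberg), calling at an adjusted p under 0.05. DESeq2 1.42.0, other scalings, filters and sample choices were alternatives. The procedure was tested on simulated data. Intervals cover the spread between libraries. The members and lists were chosen with earlier results of these data known. From each list, up to 2 called genes per direction with the smallest p and non-overlapping groups are named, with Pou5f1, Nanog, Sox2 and Polr2a; 1 result that this rule selects is not reported here. Lengths are from GENCODE vM21. The difference between replicates 1 and 2 was taken in each group, per gene on the log2 scale. Across genes, these differences correlated at 0.07 between untreated and auxin groups and at -0.03 between untreated and wild-type groups. The numbers were therefore not used to pair libraries in the main fits. A correlation over all tested genes cannot exclude a pairing, and the labels do not state one.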

Additional observations from a re-analysis of the deposited data

How the results depend on the processing

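With 2 libraries a group, calls after auxin turned on single libraries, and a missed threshold does not show that a gene stayed the same. Prdm14, with the fewest counts (212 to 320), had the largest error of the 10. After auxin, 1 of the 10 genes and 677 genes in all were called. DESeq2 called 1 and 236, scaling to mitochondrial mRNAs 0 and 219, no filter on low counts 0 and 55, and a minimum of 10 counts in every library 1 and 432. One fit of all 3 groups called 4 of the 10 (Dnmt1, Tet1, Tet2 and Prdm14, all lower) and 1235 genes. Whether the labels' numbers pair the libraries is not known. With the number as a replicate block, edgeR called 5 of the 10 after auxin (Dnmt1, Tet1, Tet2 and Prdm14 lower, Tet3 higher) and 1930 genes. In wild-type cells the block called 7 of the 10 and 9689 genes. Leaving out each library in turn gave 0 to 4 of the 10 and 179 to 2724 genes after auxin, the 0 without either auxin library and the 4 and 2724 without untreated replicate 1. Without untreated replicate 2 it gave 3 of the 10 and 1114 genes. The cause of these differences was not tested.

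Tet1's fall after auxin, besides losing its call without either auxin library, was at an edgeR adjusted p of 0.0586 with no filter (log2 fold change -0.39) and of 0.108 scaled to mitochondrial mRNAs (-0.54). That scaling turned Dnmt3b to -0.13 and Dnmt3l to -0.11 after auxin. Without untreated replicate 1, Dnmt3a was at 0.0395. Over the libraries left out, its value ran from -0.1073 to 0.0395, that of Dnmt3b from -0.0142 to 0.0989 and that of Dnmt3l from -0.0037 to 0.1265, the lowest values of the last pair without untreated replicate 2.

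In wild-type cells 7 of the 10 were called, and 7 to 9 with each library left out, with 7532 to 9570 genes beside 9555. The 9 came without untreated replicate 2, with Dnmt3l and Tet3 called lower, and library totals alone called Tet3 lower too. Scaled to mitochondrial mRNAs, 15308 genes were called and the log2 fold changes were -1.61 for Dnmt1, -1.72 for Dnmt3a, -1.63 for Dnmt3b, -0.28 for Tet1, -1.32 for Tet2, -1.24 for Uhrf1, -1.76 for Tdg and -2.03 for Prdm14. Prdm14 ran from -0.0411 (without wild-type replicate 1) to 0.1886 over the libraries left out, and was at -0.0282 without untreated replicate 2.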
